A study of Rattus norvegicus with 3 samples.

Results

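Notch signalling passes between neighbouring cells, and 10 of its genes were followed here in cultured fetal rat heart cells: the receptors Notch1 to Notch4, the ligands Jag1 and Dll4, and the target genes Hey1, Hey2, Heyl and Hes1. They are 10 of 14218 measured genes and were read by 15 of 31099 probe sets, short groups of oligonucleotides that each report 1 transcript, taken where the array annotation pairs the probe set with that gene alone. Cardiomyocytes enzymatically isolated from fetal Wistar rats, an outbred strain, were plated for 48 hours and treated for the next 24 hours with fresh medium, medium conditioned by skeletal myoblasts or medium conditioned by cardiac fibroblasts, and each of these 3 cultures gave 1 array. The labels give no genotype, pooling or number of animals, and no agent beyond the medium. The study is concerned with how factors released by myoblasts protect cardiomyocytes, and the comparisons ask which of these transcripts differ with the medium.

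A Notch receptor is cut when it binds a ligand on an adjacent cell, first by an ADAM protease and then by the gamma-secretase complex, and its freed intracellular part enters the nucleus and joins the DNA-binding protein RBPJ. The Hey and Hes genes, which encode basic helix-loop-helix repressors, are direct targets of that complex. In the heart, Notch1 and Dll4 are known for their work in the endothelium and in arterial identity, Notch3 for smooth muscle cells and pericytes, and Hey2 also for compact ventricular myocardium.

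All values are on the log2 scale and are relative: each probe set was centred on its own median array, so a value of 0 is the middle of the 3 arrays, a difference of 1 is 2-fold, and the absolute level of a gene is unknown. A blank cell in the deposited table was read as 0. There was 1 array per medium, so the differences below carry no error from replicates and no test. The only technical yardstick was 42 probe sets for control transcripts meant to be added equally to every sample, whose largest difference in size was 0.66 between myoblast and fresh medium, 0.68 between fibroblast and fresh medium and 1.02 between the conditioned media. The control transcripts were on average 0.25 higher on the myoblast array than on the fresh-medium array. Their differences there ran from -0.01 to 0.66, so 0.66 is not a limit that holds equally for lower values. Scaling the arrays to them lowers every difference of myoblast from fresh medium by that amount, raises every difference of fibroblast from myoblast medium by 0.22 and lowers those of fibroblast from fresh medium by 0.03, and the text names the member calls and directions that this turns.

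Hey1, Hey2 and Notch1 were lower in both conditioned media than in fresh medium. Against fresh medium, Hey1 was 3.03-fold lower in myoblast medium and 6.23-fold lower in fibroblast medium, Notch1 was 2.21-fold and 2.52-fold lower, and Hey2 was 1.84-fold and 3.37-fold lower. Jag1 was instead highest in fibroblast medium, and Hes1 lay within 0.36 over the 3 arrays. Notch2, Notch3 and Heyl had no value on any array.

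**Figure D1:**
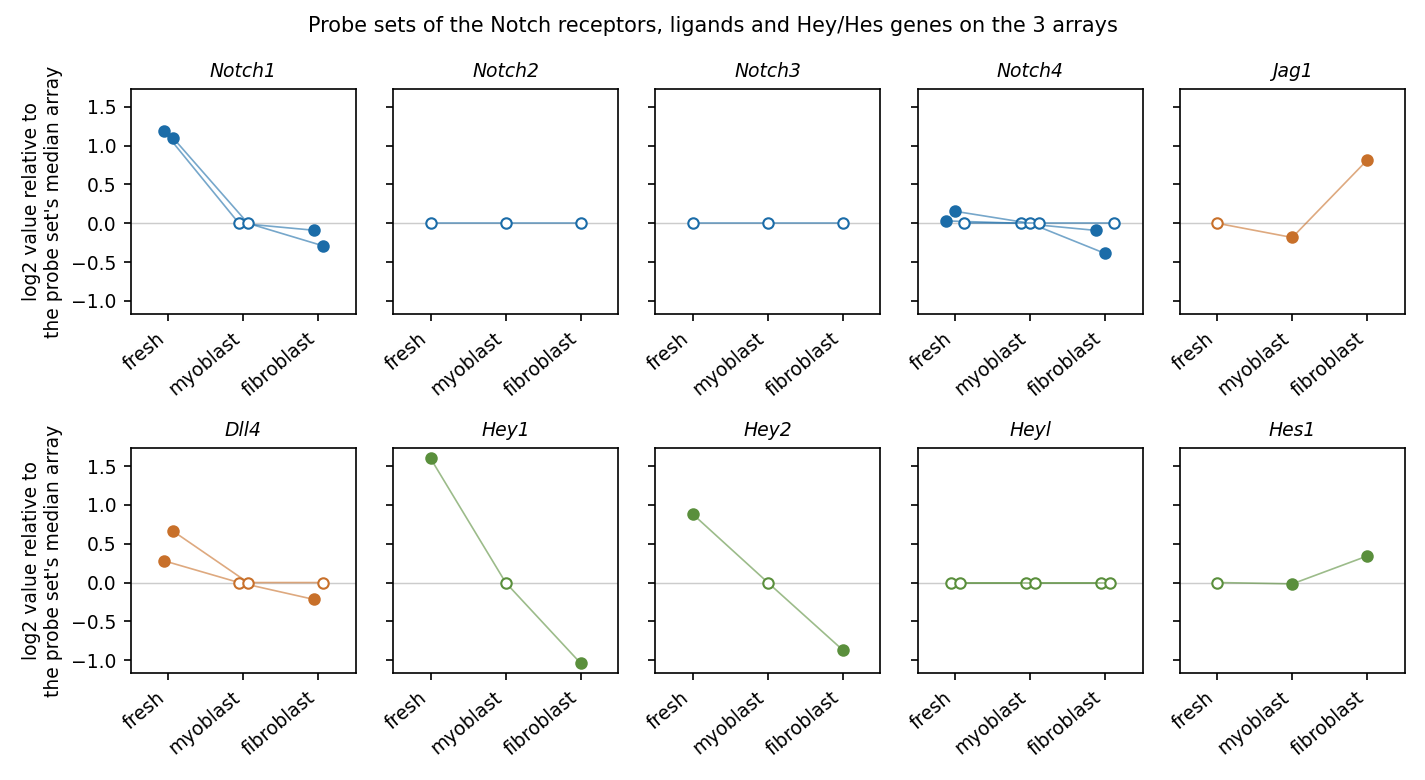
Log2 value of each of the 15 probe sets relative to its own median array (vertical axis) on the arrays of fresh, myoblast-conditioned and fibroblast-conditioned medium (horizontal axis), 1 line per probe set, filled points for deposited values and open points for blanks read as 0. Hey1 spans from 1.60 to -1.04 and Hey2 from 0.88 to -0.87, both highest in fresh medium, whereas Jag1 is highest in fibroblast medium at 0.82.

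Among the receptors, Notch1 was the only one with a difference of 2-fold. Its first probe set read 1.18 in fresh medium, was the median in myoblast medium and read -0.09 in fibroblast medium. The second read 1.10, the median and -0.29 in the same order. Both probe sets thus placed fresh medium more than 1 unit above the other media, and they differed from each other by 0.08 for myoblast against fresh medium and by 0.12 for fibroblast against fresh medium. Over 2318 genes with at least 2 such fully measured probe sets, the median of that spread was 0.19 and 0.32.

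Averaged over its probe sets, Notch1 differed from fresh medium by -1.14 in myoblast medium and by -1.33 in fibroblast medium. Of all 14218 genes, 81 were as low as Notch1 or lower in the first comparison and 206 in the second, counting Notch1 itself, as in the like counts below. The conditioned media differed by only -0.19 for Notch1, which became 0.03 with the arrays scaled to the added control transcripts.

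Notch4, a receptor known mainly from endothelium, had 3 probe sets. The first read 0.03 in fresh and -0.09 in fibroblast medium, the second 0.15 and -0.39, each with myoblast medium as the median, and the third had no value. Its mean differences of -0.06 in myoblast and -0.22 in fibroblast medium were smaller in size than the largest control difference. Between the conditioned media it stood at -0.16, or 0.06 after scaling to the control transcripts.

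Notch2 and Notch3, each with 1 probe set, were blank on all 3 arrays. Such blanks occurred in 5980 of 31099 probe sets and are what equal values on every array would leave, so they show no measured difference. Whether a floor set on low values left them was not tested. How strongly either receptor was expressed cannot be read from these centred values. Notch3 is known from mural cells, and the 12 genes that mark smooth muscle and pericytes did not go 1 way: at the 2-fold threshold, 3 were higher and 2 lower in myoblast medium, with a median of -0.14, and in fibroblast medium 4 were higher and 1 lower, with a median of 0.39. The 3 higher genes in myoblast medium were contractile genes that were also higher in fibroblast medium. Cnn1 was at 3.02 and 2.69 in those comparisons, Acta2 at 1.98 and 2.17 and Tagln at 1.33 and 2.75. The pericyte genes Kcnj8 and Rgs5 were at -1.13 and -1.06 in myoblast medium, but at -0.29 and 0.15 in fibroblast medium. There the 1 lower gene was Abcc9, at -1.33.

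Neither ligand reached 2-fold against fresh medium. Jag1, a transmembrane ligand of endothelial, mural and other cells, was the median in fresh medium and read -0.18 in myoblast and 0.82 in fibroblast medium by its 1 probe set. Fibroblast medium thus stood apart from the other 2 arrays, 1.76-fold above fresh medium and 0.998 above myoblast medium, just short of 2-fold. That last value became 1.22, past 2-fold, with the arrays scaled to the added control transcripts. In the comparison with fresh medium 836 genes were as high as Jag1 or higher.

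Dll4, the ligand of arterial and sprouting endothelium, was read by a pair of probe sets that agreed in sign but not in size. The first read 0.28 in fresh and -0.22 in fibroblast medium with myoblast medium as the median. The second read 0.66 in fresh medium, and the conditioned media had no value. The mean was -0.47 in myoblast and -0.58 in fibroblast medium, short of 2-fold and smaller in size than the largest control difference. In myoblast medium that largest control difference was upward, and the lowest control was at -0.01. The myoblast difference of Dll4 was -0.28 with the first probe set alone. The conditioned media differed by -0.11, or by 0.11 in the other direction after scaling.

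Of the target genes, Hey1 had the widest range of the members. Its 1 probe set read 1.60 in fresh medium, was the median in myoblast medium and read -1.04 in fibroblast medium. The differences from fresh medium were -1.60 and -2.64. Only 21 of 14218 genes were as low as Hey1 or lower in myoblast medium and 30 in fibroblast medium. Fibroblast medium was also 2.06-fold below myoblast medium, at -1.04, but at -0.82 after scaling to the control transcripts, which is short of 2-fold.

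Hey2 kept the same order of the arrays with a smaller range. It read 0.88 in fresh medium, was the median in myoblast medium and read -0.87 in fibroblast medium. Its difference of -1.75 in fibroblast medium was past 2-fold, and that of -0.88 in myoblast medium was short of it, or past it at -1.13 after scaling to the control transcripts. In those comparisons 107 and 169 genes were as low as Hey2 or lower.

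Hes1, which many signals besides Notch are known to induce, was the median in fresh medium and read -0.02 in myoblast and 0.34 in fibroblast medium. All of its differences were smaller in size than the largest control difference. Heyl, the third Hey gene, had 2 probe sets without a value on any array. The targets did not differ as 1 group: both measured Hey genes were lower in each conditioned medium, and Hes1 was not.

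The upstream sequences of Hey2, Hes1 and Notch1 are shown because Hey2 and Notch1 were lower in conditioned medium and Hes1 was not, although Hes1 is a standard target of RBPJ. Each is the 250 bases before the annotated start of the gene, written 5′ to 3′ on the gene's strand, from RefSeq on build GRCr8, and capitals mark the RBPJ core TGGGAA or its reverse complement TTCCCA.
Hey2 (chr1:28640850-28641099, plus strand): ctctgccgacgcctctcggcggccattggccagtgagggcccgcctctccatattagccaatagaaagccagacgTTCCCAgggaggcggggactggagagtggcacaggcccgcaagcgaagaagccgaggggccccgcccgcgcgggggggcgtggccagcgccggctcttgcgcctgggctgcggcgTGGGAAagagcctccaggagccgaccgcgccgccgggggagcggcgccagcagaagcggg
Hes1 (chr11:84213046-84213295, minus strand): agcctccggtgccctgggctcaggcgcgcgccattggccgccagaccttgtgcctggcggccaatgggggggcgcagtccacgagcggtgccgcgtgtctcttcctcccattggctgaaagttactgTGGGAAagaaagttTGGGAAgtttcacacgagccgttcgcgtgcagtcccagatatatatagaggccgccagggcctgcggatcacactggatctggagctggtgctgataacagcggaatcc
Notch1 (chr3:29721614-29721863, minus strand): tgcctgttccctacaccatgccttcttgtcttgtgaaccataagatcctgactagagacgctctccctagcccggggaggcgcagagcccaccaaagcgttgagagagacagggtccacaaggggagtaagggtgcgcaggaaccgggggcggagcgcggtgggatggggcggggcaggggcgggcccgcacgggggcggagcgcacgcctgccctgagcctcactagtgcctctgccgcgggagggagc

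RefSeq promoter entries were matched for 8 of the 10 members, all but Dll4 and Hey1. The core was found in 3 of the 8 windows, those of Hey2, Hes1 and Notch4, with 2 matches in each. Among all 33469 promoter windows of that length 22.1% held at least 1 match on either strand and 2.71% at least 2. In Hes1 both matches lie on the gene's strand, at bases 123 to 118 and 109 to 104 before the start. In Hey2 they lie on opposite strands, at bases 175 to 170 on the opposite strand and 60 to 55 on the gene's strand. The longer form GTGGGAA, which contains the core, was found once in Hey2 and once in Hes1, against 5.27% of all windows. Hey2 and Hes1 thus share these letters and differed in their values.

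A pair of short sites that Hey and Hes proteins are known to bind were also searched. The E-box CACGTG was in no member window, against 5.59% of all windows. The class C site CACGCG or its reverse complement CGCGTG was found 2 times in each of Notch2, Jag1 and Hes1 and 1 time in Heyl, against 7.14% of all windows. The member windows held 54.8% to 73.2% G and C. A match is a description of the letters and not of binding.

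**Figure D2:**
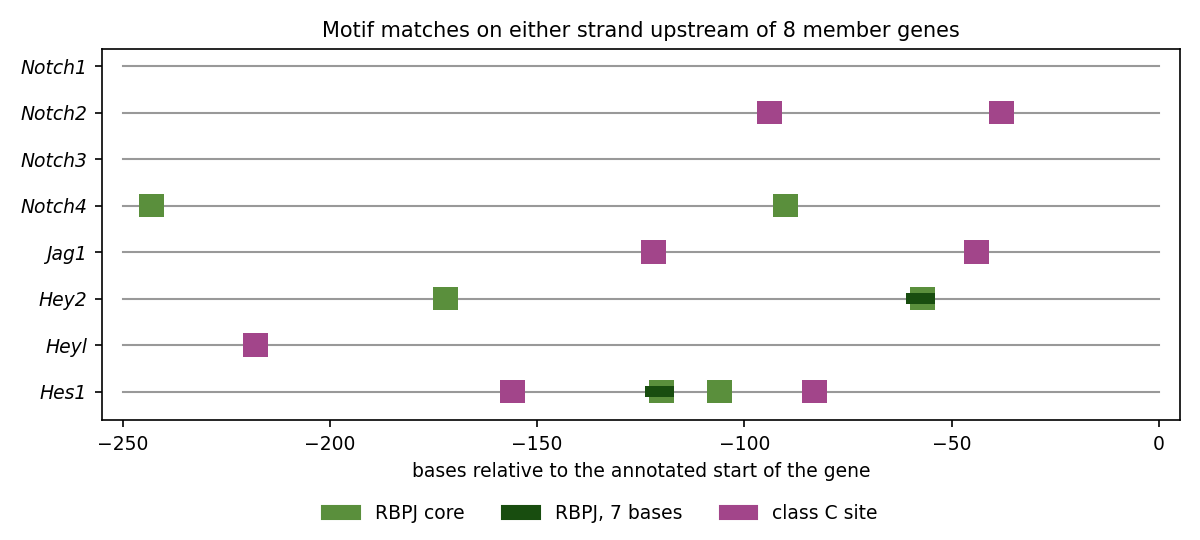
Matches on either strand of the RBPJ core of 6 bases, its longer form of 7 bases and the class C site (coloured boxes) along the 250 bases before the annotated start (horizontal axis, bases) of the 8 members with a RefSeq promoter entry (rows). The paired RBPJ cores of Hes1 lie close together, those of Hey2 and Notch4 lie far apart, and Notch1 and Notch3 have no match.

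Counted over all members, 2 of 10 genes (Notch1 and Hey1) were at least 2-fold lower in myoblast than in fresh medium, against 0.844% of all genes, and 0 of 10 were at least 2-fold higher, against 1.35%. In fibroblast medium 3 of 10 (Notch1, Hey1 and Hey2) were at least 2-fold lower than in fresh medium, against 2.60%, and 0 were higher, against 4.26%. Between the conditioned media only Hey1 was at least 2-fold lower in fibroblast medium, against 2.12% of all genes, and 0 members were at least 2-fold higher, against 3.94%. After scaling to the control transcripts the first count was 3, with Hey2 added, against 1.75% of all genes under that scaling. In the last comparison Hey1 dropped out, against 1.36% of all genes lower, and Jag1 was higher, against 5.77%. Both comparisons with fresh medium use the same fresh-medium array, so a single unusual value there would enter both. The members were chosen with earlier results of these data known, so the shares describe them and do not measure enrichment.

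The median over the 10 members was -0.12 in myoblast medium and -0.11 in fibroblast medium, against 0.00 over all genes in each. Those medians include the 3 members at 0. Over the 7 members with a value they were -0.47 and -0.58. All 7 were below 0 in myoblast medium, though Hes1 only at -0.02 and Notch4 at -0.06, against 5 of 7 in fibroblast medium. Of 12591 genes with a value, 5719 and 6133 were below 0 in those comparisons.

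**Figure D3:**
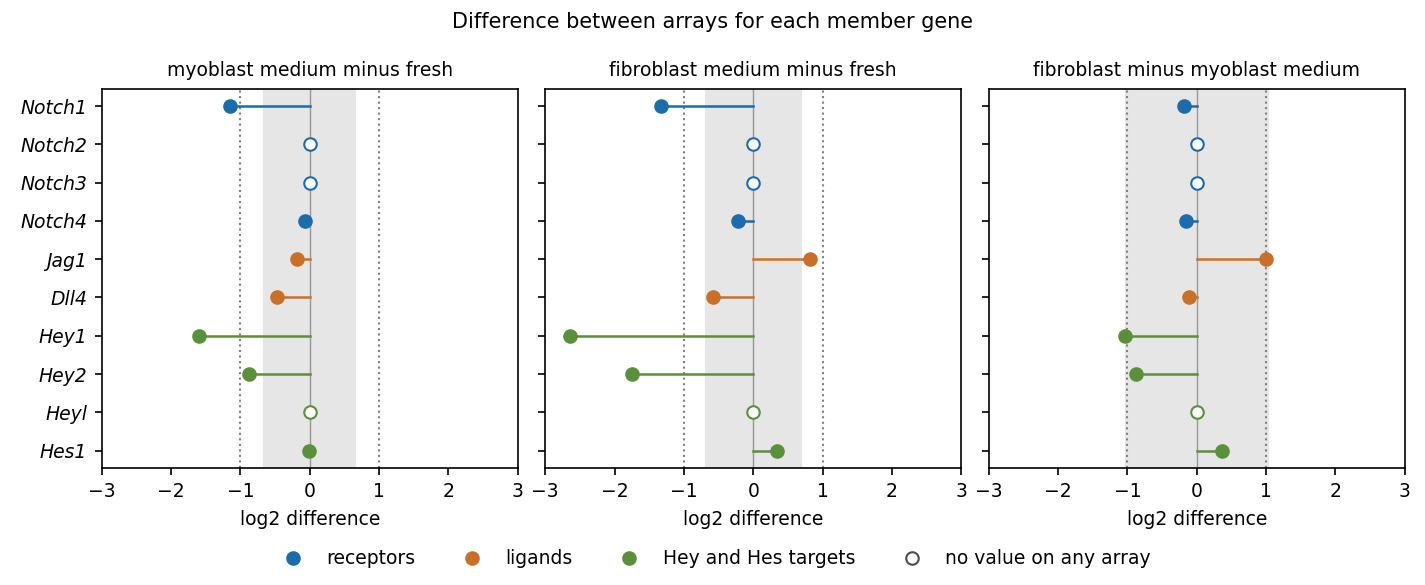
Log2 difference between arrays (horizontal axis) for each of the 10 members (rows), coloured by role, in the 3 comparisons (panels). Dotted lines mark 2-fold, the grey band spans the largest size of difference among the 42 control transcripts in either direction, and open points are genes with no value. In myoblast against fresh medium the controls themselves ran from -0.01 to 0.66. Hey1, Hey2 and Notch1 lie outside the band in both comparisons with fresh medium. Jag1, at 0.82, lies outside it in fibroblast against fresh medium. Between the conditioned media Hey1 passes the wider band by little, at -1.04 against 1.02, before any scaling to the control transcripts.

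Averaged over each gene's probe sets, the rest of the pathway differed little. Of 43 other measured pathway genes, 1 was at least 2-fold higher and 0 were lower in myoblast medium, and 1 was higher and 1 lower in fibroblast medium, shares near those of all genes. The median was -0.01 and -0.03, and the 6 lists that make up this group had medians between -0.10 and 0.00 in both. Between the conditioned media none of the 43 reached 2-fold. For 2 cleavage genes the average hid a larger difference, seen with only the probe sets valued on 2 arrays. Adam10 was then at -1.14 in fibroblast against fresh medium, and Ncstn at 1.02 in fibroblast against myoblast medium.

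The 3 genes past 2-fold on the average of their probe sets had different roles. Tle1, a co-repressor that Hes proteins recruit, read -0.96 in fresh medium and 0.15 in myoblast medium, with fibroblast medium as the median. Its difference of 1.10 in myoblast medium fell short of 2-fold after scaling to the control transcripts. Mfng, the Manic fringe enzyme that adds sugars to Notch receptors, read 0.45 in fresh and -0.87 in fibroblast medium, a difference of -1.33. Psen2, a catalytic subunit of gamma-secretase, read -0.56 in fresh and 0.65 in fibroblast medium, a difference of 1.21.

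In the remaining lists every gene stayed below 2-fold. The largest difference from fresh medium among 5 other ligands was that of Dlk2, a non-canonical ligand, at -0.14 in fibroblast medium, and 3 of these 5 had no value. Among 9 genes that restrain or turn over Notch, it was that of Nrarp, a feedback inhibitor that Notch itself is known to induce, at -0.48 in myoblast and -0.58 in fibroblast medium. Among 5 other Hes family genes Hes6 had the largest difference from fresh medium, at 0.24 in myoblast medium. Rbpj itself was at 0.27 and 0.38.

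Many endothelial markers were lower on the arrays where Notch1 and the Hey genes were lower. Of 17 measured markers, 4 were at least 2-fold lower in myoblast medium and 11 in fibroblast medium, and 0 were 2-fold higher in either, so that 13 and 6 stayed short of 2-fold. Their median value was 0.64 on the fresh-medium array, 0.00 on the myoblast array and -1.40 on the fibroblast array, and their summed value was 11.1, -0.33 and -19.2. Sox7, an endothelial transcription factor, was at -3.01 and -4.94, Cldn5, a tight junction gene, at -0.91 and -3.58, and Nos3, the endothelial nitric oxide synthase, at -0.77 and -3.56. Some markers did not follow. Eng, a co-receptor gene of the TGF-beta family, was at 0.28 and 0.83. Tek, the angiopoietin receptor gene, was at 0.05 in myoblast medium, or below 0 after scaling to the control transcripts. Flt1, a VEGF receptor gene, was at 0.58 in fibroblast medium, over 3 probe sets that disagreed in sign. Because the values are centred, it cannot be read from them whether any marker was absent. In bulk RNA, fewer cells of a type and less RNA per cell cannot be told apart, and the part of endothelial cells in the Notch1, Hey1 and Hey2 values was not tested.

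The members did not all track the endothelial list. In myoblast medium the endothelial median was -0.66, and 1 of 17 markers was lower than Hey1, 2 were lower than Notch1, 5 lower than Hey2 and 9 lower than Dll4. In fibroblast medium the median was -1.44, and 6 markers were lower than Hey1, 8 lower than Hey2, 10 lower than Notch1 and 13 lower than Dll4. Compared directly, fibroblast medium was below myoblast medium by 1.45 for the median endothelial marker, with 10 of 17 at least 2-fold lower. Against that, Hey1 stood at -1.04, Hey2 at -0.87, Notch1 at -0.19 and Dll4 at -0.11, and 13 of the 17 markers were lower than Notch1 and Dll4 in that comparison.

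Arterial genes are set beside these because Notch1, Dll4 and the Hey genes act in arterial identity. Of 8 measured arterial genes, 2 were at least 2-fold lower in myoblast medium and 3 in fibroblast medium, and 1 was higher in each, with medians of -0.56 and -0.63. The connexin gene Gja4 was at -1.89 and -2.20 and the chemokine receptor gene Cxcr4 at -1.52 and -2.58, while Unc5b, a netrin receptor gene, was higher by 1.27 and 1.57. Between the conditioned media the arterial median was 0.00, and 1 of 8 was at least 2-fold lower in fibroblast medium. The 8 venous and lymphatic genes had medians of -0.23, -0.18 and -0.08 in the 3 comparisons. Of these 8, 1 was at least 2-fold lower in myoblast than in fresh medium, Emcn at -1.38, and 0 were higher. In fibroblast medium 2 were lower, Emcn at -5.65 and Lyve1 at -3.59, and 1 was higher, Nrp2 at 1.85.

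Markers of other cell types differed on the fibroblast array as well. Of 13 macrophage markers 10 were at least 2-fold higher than in fresh medium and 0 lower, with a median of 1.69 and summed values of -1.13, -5.63 and 31.6 in fresh, myoblast and fibroblast medium. These stand beside the higher Jag1 of that array, and their part in it was not tested. The label of the cells could not be checked by level, because centred values carry none. Of 16 cardiomyocyte markers 1 was at least 2-fold higher and 0 lower in myoblast medium, the slow myosin gene Myh7 at 1.43, and 0 were higher and 5 lower in fibroblast medium, with medians of -0.16 and -0.66. The 5 lower were Myl7 at -2.30, Myh6 at -2.11, Myl4 at -1.72, Ryr2 at -1.23 and Tnni3 at -1.09. Myl7 and Myl4 are atrial light chain genes, and the ventricular light chain genes Myl2 and Myl3 were at -0.58 and -0.22. These cardiomyocyte values stand beside the value of Hey2, which ventricular cardiomyocytes are known to express, and their part in it was not tested.

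**Figure D4:**
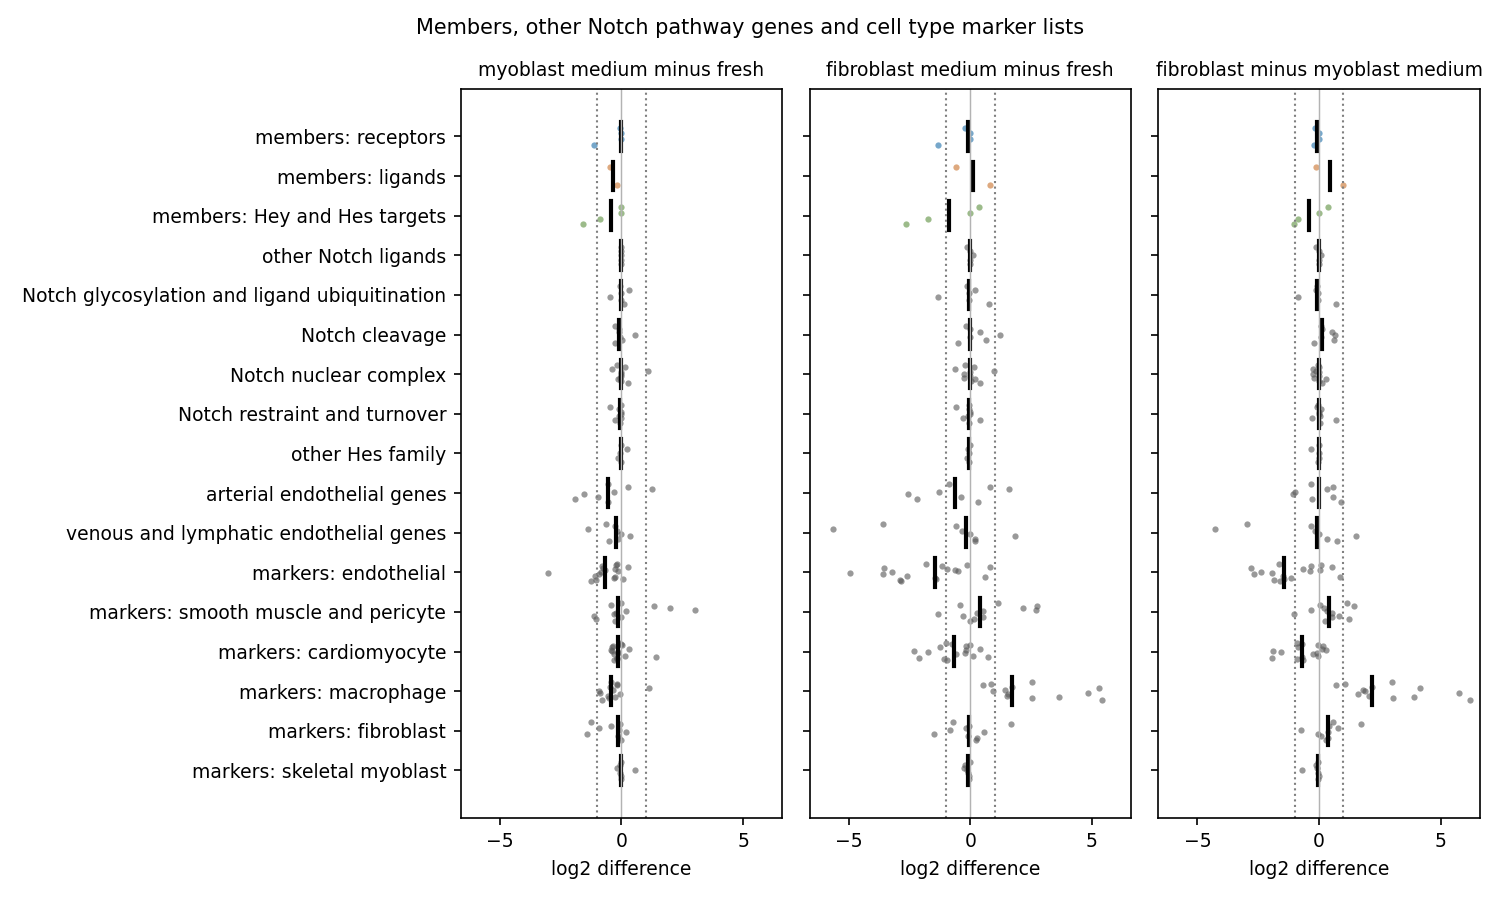
Log2 difference between arrays (horizontal axis) for every measured gene of each list (rows), 1 point per gene with the list median as a black bar, in the 3 comparisons (panels), with dotted lines at 2-fold. The endothelial median lies at -0.66, -1.44 and -1.45, the macrophage median at -0.45, 1.69 and 2.16, and the other Notch pathway lists have medians near 0.

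The genes whose 3 array values lay closest to those of Hey1, by Euclidean distance among 9747 candidate genes, were Doc2g at 0.05, Cxcr4 at 0.08, Abca8a at 0.28, Gimap4 at 0.29 and Gamt at 0.29. Doc2g read 1.57 in fresh and -1.09 in fibroblast medium, and Cxcr4 read 1.52 and -1.06, each with myoblast medium as the median. The closest to Notch1 were Gabrb2 at 0.12, Adh1c at 0.13, Serping1 at 0.15, Btnl9 at 0.16 and Rab3b at 0.17. For Jag1 they were Cd82 at 0.02, Adamtsl4 at 0.03, and Galc, C1qc and Slc48a1 at 0.04 to 0.05. C1qc is 1 of the 13 macrophage markers above. A pattern over 3 arrays has few degrees of freedom, and these names describe likeness on these arrays only.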

How the data were processed

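Total RNA was prepared with the RNeasy mini kit and labelled for 3' IVT Express arrays, per the labels' protocols. The submitters' processing notes name RMA, which corrects background, normalises between arrays and summarises each probe set. What version and settings were used is not given in the sources used here. Values as deposited are log2, as RMA gives and the range of -7.82 to 6.73 allows. Each probe set is centred on its median array, as the values show: 17117 probe sets had 2 values, always of opposite sign, 8002 had 1, 5980 had none and 0 had 3.

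Blanks were set to 0, a gene's probe sets with a single annotated symbol were averaged (20832 probe sets, symbols updated through Entrez IDs with RefSeq, assembly GRCr8), and arrays were subtracted. Probe sets with several genes (436) or no name (9831) were left out. No test of the media exists with 1 array each. The 2-fold counting was run on simulated data for myoblast against fresh medium over 14218 genes. Of 200 genes changed by 2 (log2), all 100 higher and 100 lower ones were recovered, and 11 unchanged genes were called. The amount of 2 is well past the threshold of 1, and the largest member difference there was -1.60, of Hey1. Recovery of differences as small as those of the members was not tested, nor was the number of wrong calls on the real arrays. Members and lists were chosen with earlier results of these data known. Of 153 genes on the other lists, 19 were not analysed here. Named genes are the members, pathway genes past 2-fold or largest in their list, and up to 3 marker genes per list with largest differences. Rbpj and, from the marker lists, Abcc9, Kcnj8, Rgs5, Eng, Tek, Flt1, Myh7, Ryr2, Tnni3, Myl2 and Myl3 were added after their values were seen. Also named are the 5 nearest to the widest-ranging receptor, ligand and target. Alternatives changed the blanks, the probe set summary, cross-hybridising probe sets, the array scaling and the threshold. Python 3.11.15, NumPy 2.4.6, pandas 2.3.3 and Matplotlib 3.10.9 were used.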

Additional observations from a re-analysis of the deposited data

How the results depend on the processing

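The 6 member differences of at least 2-fold kept their sign under all 6 alternatives tried at that threshold, and 35 of those 36 values stayed at least 2-fold. The exception was Hey1 between the conditioned media. Most of these values could not move, so their number says little about stability. Hey1 and Hey2 have 1 probe set each, and their values changed only with scaling to the control transcripts. Those of Notch1 changed only with that scaling and with the widest-ranging probe set. No paired analysis was possible because each group has 1 array, so leaving out a replicate was not possible either.

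Restricted to probe sets valued on 2 arrays, the member median was -0.28 in myoblast and -0.50 in fibroblast medium, over 7 members. Under that setting and with the widest-ranging probe set of each gene, 2 other pathway genes were lower in fibroblast than in fresh medium, Adam10 (-1.14) joining Mfng, and 1, Ncstn (1.02), was higher in fibroblast than in myoblast medium. With arrays scaled to the added control transcripts, the member median was -0.37 in myoblast medium, against -0.25 over all genes. Under it 0 other pathway genes were higher there, and 1 member was higher and 0 lower in fibroblast than in myoblast medium. That scaling also turned the split of all genes past 2-fold, from 192 higher and 120 lower in myoblast medium to 95 and 249, and from 560 and 302 to 821 and 193 between the conditioned media.

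At 1.5-fold, 1 member (Jag1) was higher in fibroblast than in fresh medium (9.09% of all genes), and 1 was higher and 2 were lower in fibroblast than in myoblast medium (8.34% and 6.65%). Other pathway genes numbered 4 higher and 2 lower against fresh medium and 4 higher and 1 lower between the conditioned media. At 3-fold, 1 member (Hey1) was lower in myoblast medium (0.148%), 0 were lower between the conditioned media, and 0 other pathway genes were past it in any comparison. The other 92 alternative counts and medians stayed within 1.5 times, or within 1 SD of the control transcripts. The number of arrays limits the precision, and signal over background is unknown.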

Other observations

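The markers of the cells that conditioned the media were also read in the cardiomyocyte cultures. Of 10 fibroblast genes, 2 were at least 2-fold lower in myoblast than in fresh medium (Pdgfra at -1.42, a growth factor receptor gene of mesenchymal cells, and Dpt at -1.26, a matrix protein gene), and 0 were 2-fold higher, with a median of -0.13. In fibroblast medium 1 was higher, the surface glycoprotein gene Thy1 at 1.69, and 1 lower, Pdgfra at -1.48, with a median of -0.07. Of 7 skeletal myoblast genes 0 reached 2-fold in either conditioned medium, with medians of -0.03 and -0.11.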
